A study of Homo sapiens with 10 samples.

Results

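The genes described here are 10 amino acid transporters of the plasma membrane, SLC7A11, SLC7A5, SLC3A2, SLC7A1, SLC38A1, SLC38A2, SLC1A4, SLC1A5, SLC6A9 and SLC43A2. They were found by their gene symbol in a table of read counts with 22626 rows, of which 20463 carry an Ensembl identifier and 2163 are loci assembled from the reads, and each symbol had 1 row. RNA was sequenced from ARPE-19, an established human cell line of the retinal pigment epithelium (RPE), the cell layer between the photoreceptors and the choroidal blood. The cells were kept for 48 h in control medium, in which D-glucose was at 5.5 mM and mannitol at 32 mM (n = 5 libraries), or in high glucose (HG) medium with 37.5 mM D-glucose (n = 5). Mannitol is a sugar alcohol that brings the control medium to the same number of dissolved molecules, so the groups differ in glucose and in mannitol together. All 10 libraries come from a single cell line in serum-containing DMEM, and while the methods speak in general of independent experiments, the sources do not say which libraries came from separate cultures, so each p-value measures only the spread between these libraries, which may be technical. The control libraries carry replicate numbers 1 to 5, and the HG libraries are named HG_1 to HG_5 after the deposited columns, because the labels give only their group.

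Amino acid transporters pass amino acids across the membrane as exchangers, which trade an amino acid inside for another outside, as sodium-coupled carriers, which accumulate them, or as facilitators. SLC7A11 and SLC7A5 are light chains that reach the cell surface bound to the heavy chain SLC3A2. When amino acids are scarce or proteins misfold, cells raise the transcription factor ATF4, which binds C/EBP-ATF response elements. It is known to drive several of these transporters together with enzymes of amino acid synthesis. In the RPE such carriers supply both the cell itself and the retina next to it.

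Total counts per library lay between 33039260 and 45864176 in the control group and between 32448991 and 44400714 in the HG group, and 3 counts, which a library with 0 observed counts could still hide, amount to 0.0654 to 0.0925 CPM when scaled to the total of the library. The CPM of genes given here, counts scaled to the total of a library, are in addition divided by its TMM normalisation factor. TXNIP, a gene that glucose is known to induce, was used to check the labels and rose from 0.978 ± 0.224 CPM (SD, n = 5) to 8.72 ± 2.76 CPM (n = 5) with no overlap. HG_1 and control replicate 2 stood apart from the rest: a gene's level in them rose with the GC content of its transcript by 0.188 and 0.17 on the log2 scale per 10 percentage points, against slopes between -0.0916 and -0.00519 in the other 8 libraries. Of 12 RPE markers 8 had a mean of at least 1 CPM, TTR was at 0 in all libraries and RPE65 had a mean of 0.6 counts, so the line lacks defining genes of mature RPE. The summed FPKM of the 12 markers was between 1543.6 and 1921.3 in control and between 987.6 and 1294.9 in HG. Most of it came from the keratins KRT8 (mean 954.1 FPKM in control, 611.3 in HG) and KRT18 (689.8 and 431.8), which fell by 0.62 and 0.68 on the log2 scale. The melanosome gene PMEL fell by 0.72, while RLBP1, MITF, OTX2, TYRP1 and SERPINF1 were not called (edgeR adjusted p between 0.0814 and 0.983). The leukocyte marker sum was between 29.5 and 42.9 FPKM in control and between 55.7 and 74.8 in HG. It came almost wholly from CD68, which rose by 0.70 on the log2 scale, while PTPRC had a mean of 1 count and AIF1 and CD3E were at 0. The sum of the 5 fibroblast markers was between 34.4 and 43.7 FPKM in control and between 17.7 and 21.1 in HG. It came almost wholly from COL1A1, which fell by 1.33, and PDGFRB, which fell by 0.78. COL1A2 and DCN had means of 0.4 and 0.3 counts, and LUM was at 0. The summed levels of 4 endothelial and 4 Mueller glia markers overlapped between the groups, while the endothelial marker KDR fell by 0.63 (adjusted p = 0.0452), and CDH5, AQP4 and SLC1A3 were at 0, as were the neural retina genes GNAT1 and CRX. BEST1, a gene of mature RPE, ranged from 0.577 to 551.5 CPM among the control libraries, with 264 and 551.5 CPM in control replicates 1 and 4, and from 0.981 to 7.79 CPM in HG. The part of these differences in the results was not tested. In bulk RNA, fewer cells expressing a gene and less RNA per cell cannot be told apart.

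The sequences at the start sites of the transporters are shown because known targets of ATF4 often carry its response element there. Start sites and sequences come from a set of RefSeq promoters on GRCh38.p14. The set used here held 17 promoter windows for 9 of the 10 genes, each from 250 bases before to 50 bases after a start. It had no entry for SLC7A11, so the promoter of that gene was not examined. The core TGATGNAA of the C/EBP-ATF response element was searched on both strands, and 5 of the 17 windows, from 5 of the 9 genes, held it, against 3.62% of all 35116 windows and 4.46% of all 27305 genes in the same reference. The members have more windows per gene than that reference, so the shares per gene are not on equal terms. Of the genes with a match, all but SLC7A1 also have windows at other starts, and those held no match. The 30 bases around each match follow, read on the strand of the gene, with the match in capitals and positions counted from 1 at the first transcribed base.
SLC1A4, chr2:64989381-64989410, plus strand, match at -7 to 1 on the opposite strand: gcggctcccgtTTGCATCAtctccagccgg
SLC1A5, chr19:46784893-46784922, minus strand, match at -97 to -90: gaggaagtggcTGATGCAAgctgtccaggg
SLC38A1, chr12:46266502-46266531, minus strand, match at -4 to 4: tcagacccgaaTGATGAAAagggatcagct
SLC7A1, chr13:29595663-29595692, minus strand, match at 8 to 15: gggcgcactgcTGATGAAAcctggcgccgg
SLC3A2, chr11:62881719-62881748, plus strand, match at 38 to 45 on the opposite strand: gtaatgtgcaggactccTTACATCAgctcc

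For the members that differed between the groups and have an entry, the promoters from 250 bases before to 10 bases after the start are given in full on the strand of the gene. SLC1A4 has a second RefSeq start, whose promoter (chr2:64988229-64988488, plus strand, GC content 48.5%) held no match and is not printed. The printed one (chr2:64989149-64989408, plus strand) had a GC content of 78.8% in this stretch and the match shown in capitals, and SLC7A5 (chr16:87869498-87869757, minus strand) had 79.2% and no match. A match describes the letters only, and neither binding nor promoter activity was measured in these libraries.
SLC1A4 promoter: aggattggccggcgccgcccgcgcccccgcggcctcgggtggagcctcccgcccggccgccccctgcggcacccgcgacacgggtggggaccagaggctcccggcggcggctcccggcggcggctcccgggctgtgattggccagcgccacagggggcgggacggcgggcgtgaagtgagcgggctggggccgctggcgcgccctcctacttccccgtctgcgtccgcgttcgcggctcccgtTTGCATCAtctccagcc
SLC7A5 promoter: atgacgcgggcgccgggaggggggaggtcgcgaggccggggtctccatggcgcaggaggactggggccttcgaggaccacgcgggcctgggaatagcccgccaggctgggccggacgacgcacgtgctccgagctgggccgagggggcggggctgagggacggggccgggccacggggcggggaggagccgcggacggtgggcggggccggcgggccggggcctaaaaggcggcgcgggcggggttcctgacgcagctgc

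Levels of different genes were compared in the deposited FPKM, which is divided by transcript length. For SLC3A2 the factor between counts and FPKM was not fixed. Relative to its share of total counts, its FPKM was higher in each HG library than in each control library. For example, HG_2 had fewer CPM than control replicate 3 (402.4 against 415.5) but more FPKM (186.9 against 184.7). The part of this in the FPKM results for SLC3A2 was not tested. In the control group SLC7A5 and its heavy chain SLC3A2 stood far above the others, with 222.4 FPKM (218.5 to 227.4 over 5 libraries) and 184.4 FPKM (167.5 to 207.9), and SLC7A5 was the higher in 5 of 5 libraries. Together they made up between 86.4% and 90.4% of the summed FPKM of the 10 genes in control and between 84.9% and 89.8% in HG. SLC38A1 and SLC7A1 followed with 23.9 and 23 FPKM, and their ranges overlapped. SLC1A4 with 3.4 FPKM, SLC7A11 with 2.78 and SLC1A5 with 1.9 formed a lower tier, in which the ranges of SLC7A11 and SLC1A5 overlapped although SLC7A11 was above SLC1A5 in each library. SLC6A9, SLC38A2 and SLC43A2 were near the lower end, with 0.327, 0.14 and 0.138 FPKM, and neighbours in this order overlapped. In HG the order at the top was no longer resolved, with 196.6 FPKM for SLC3A2 (186.9 to 224.4) and 192 FPKM for SLC7A5 (184.5 to 203.3), and SLC3A2 was the higher in 3 of 5 libraries. SLC7A11 reached 4.17 FPKM there (3.1 to 4.89) and no longer overlapped SLC1A5 at 2.27 FPKM (1.83 to 2.94), but overlapped SLC1A4 at 4.48 FPKM (3.85 to 5.04).

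**Figure D1:**
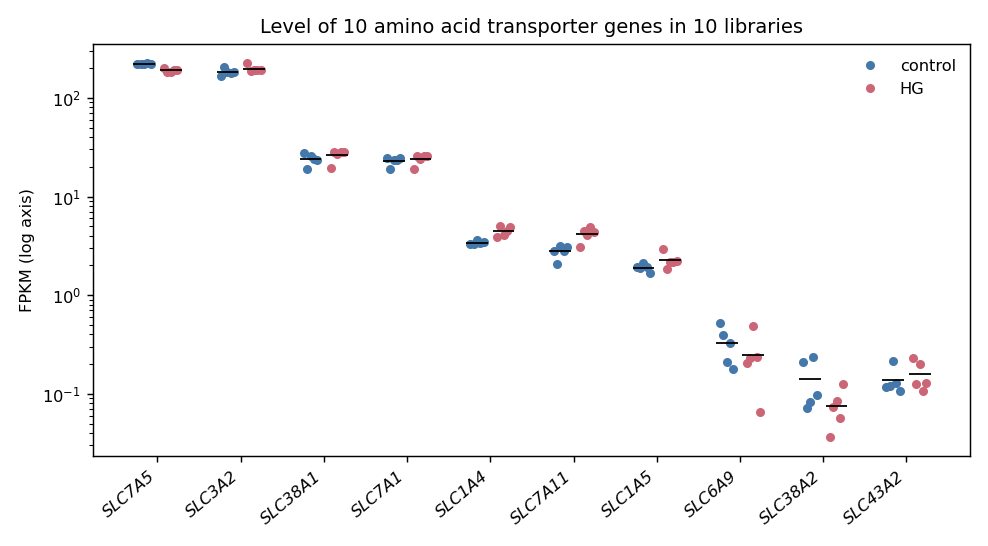
FPKM of the 10 transporter genes on a log axis, in order of their control mean, with 1 point per library (control blue, HG red, n = 5 each) and a line at each group's mean. SLC7A5 and SLC3A2 lie near 200 FPKM, and the 3 genes on the right lie under 1 FPKM with overlapping groups.

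The groups were compared from the counts with edgeR's quasi-likelihood test, and p was adjusted by Benjamini-Hochberg over the 14936 rows that passed its filter on low counts. The adjusted p of a gene comes from this fit unless another setting is named, which has its own rows (14899 without HG_1 and control replicate 2, and 13538 with GC content and length corrected), and ratios were adjusted over the 4 of them. All 10 transporters passed the filter. At an adjusted p under 0.05, 3 of the 10 differed, SLC7A11 and SLC1A4 higher and SLC7A5 lower in HG, and the same 3 genes had no overlap between the groups in CPM (2 of them, SLC1A4 and SLC7A5, also in FPKM and in counts over total counts alone). Of all rows tested 15.4% passed this limit (7.62% higher and 7.8% lower in HG) and 13.6% had no overlap (6.74% higher and 6.91% lower). No transporter passed a fold change of 1.5 together with the adjusted p, against 3.69% of all rows. SLC7A11, at 1.49-fold, lay at this limit, and its log2 fold change was past it from total counts alone (0.59) and without HG_1 (0.66), HG_3 (0.59), control replicate 3 (0.62) or control replicate 5 (0.61), each with an adjusted p under 0.05. The median log2 fold change of the 10 genes was 0.09, with 7 positive and 3 negative values, beside 0.001 over all rows tested.

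**Figure D2:**
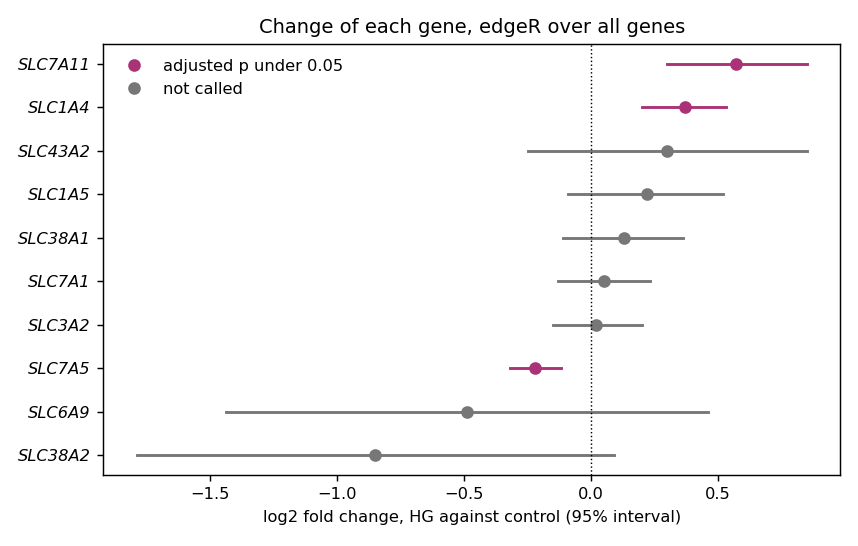
Log2 fold change of each transporter, HG against control, with its 95% confidence interval from edgeR (n = 5 against 5), coloured where the adjusted p was under 0.05. The intervals of SLC7A11 (0.30 to 0.85) and SLC1A4 (0.20 to 0.53) lie above 0 and that of SLC7A5 (-0.32 to -0.12) below it, and the other 7 cross 0.

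SLC7A11 (ENSG00000151012, GRCh38 chr4:138164097-138242349, minus strand) is the light chain that imports cystine in exchange for glutamate and so feeds glutathione synthesis. It had 29.4, 22.2, 32.5, 29.2 and 31.6 CPM in control replicates 1 to 5 and 33.4, 45.4, 41.9, 50.2 and 45.1 CPM in HG_1 to HG_5. The groups did not overlap on this scale, with HG_1 only just above control replicate 3, but they overlapped by these 2 libraries in FPKM (3.1 in HG_1 against at most 3.13 in control) and in counts over total counts alone (32.3 against 32.6). The control mean of 29 ± 4.08 CPM (SD, n = 5) rose to 43.2 ± 6.21 CPM (n = 5) in HG, by 0.57 on the log2 scale (SE 0.123, adjusted p = 0.00993) or 1.49-fold (95% interval 1.23 to 1.80). HG_1 and control replicate 2 were the lowest library of their group, by 0.45 and 0.47 on the log2 scale below the mean of the other 4, and without both the log2 fold change was 0.57 (adjusted p = 0.000329). Of the 100-base windows of its transcript, 7.07% are shared with SLC7A11-AS1 on the opposite strand, and whether the libraries keep strand is not stated, so such reads cannot be told apart.

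SLC7A5 (ENSG00000103257, GRCh38 chr16:87830023-87869488, minus strand) is the light chain that brings in leucine and other large neutral amino acids in exchange for glutamine. The control replicates had 1086.8, 1126.1, 1072.7, 1113.2 and 1091.3 CPM and HG_1 to HG_5 had 1035.5, 890.9, 899.3, 937.3 and 944 CPM. All HG libraries were below all control libraries, with HG_1 the nearest to them. The control mean of 1098 ± 21.4 CPM fell to 941.4 ± 57.5 CPM in HG, which is -0.22 on the log2 scale (SE 0.0465, 95% interval -0.32 to -0.12, adjusted p = 0.00878), and without HG_1 and control replicate 2 it was -0.25 (adjusted p = 0.000436). After correction of the libraries for GC content and length, the log2 fold change was -0.16 (adjusted p = 0.00781). Windows amounting to 2.23% of its transcript also occur in SLC7A5P2, SMG1P3 or AC126696.2, so a small share of its reads is uncertain.

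SLC3A2 (ENSG00000168003, GRCh38 chr11:62856102-62888875, plus strand) is the heavy chain that both light chains need at the surface. It had 391.7, 493.3, 415.5, 408.5 and 410.3 CPM in control replicates 1 to 5 and 507.9, 402.4, 419.7, 409.1 and 413.7 CPM in HG_1 to HG_5. Within each group 4 libraries lay close together, and control replicate 2 and HG_1 stood far above them. The log2 fold change was 0.02 (SE 0.0797, 95% interval -0.15 to 0.20, adjusted p = 0.895), so a difference larger than these bounds is outside the interval while a smaller one was not detectable. Its sign depended on single libraries: it was -0.04 without HG_1 and 0.08 at most among the other fits with a library left out, and 0.09 with limma on log2(FPKM + 1).

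The ratio of a light chain to its heavy chain within a library was compared as well, with an exact two-sided permutation test (252 arrangements of 5 against 5 libraries). The log2 ratio of normalised counts of SLC7A5 to SLC3A2 was 1.38 ± 0.112 (SD, n = 5) in control and 1.13 ± 0.07 (n = 5) in HG, a difference of -0.25 (exact p = 0.0159, adjusted over 4 ratios 0.0635). As plain ratios, these were 2.28 to 2.77 and 2.04 to 2.29, and the groups overlapped only through control replicate 2. The log2 ratio of SLC7A11 to SLC3A2 was -3.88 ± 0.339 in control and -3.32 ± 0.352 in HG, a difference of 0.55 (exact p = 0.0397, adjusted 0.0741). Neither passed 0.05 after adjustment over the 4 ratios. The ratio of SLC7A5 to SLC3A2 passed when taken from FPKM (difference -0.31, adjusted exact permutation p = 0.0317), in which SLC3A2 had more FPKM per count in HG. It also passed without HG_1 (-0.22) or HG_5 (-0.26), each with an adjusted exact p of 0.0476, and without control replicate 2 (-0.29, adjusted exact p = 0.0317). That of SLC7A11 to SLC3A2 passed without HG_1 (0.70, adjusted exact permutation p = 0.0317).

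**Figure D3:**
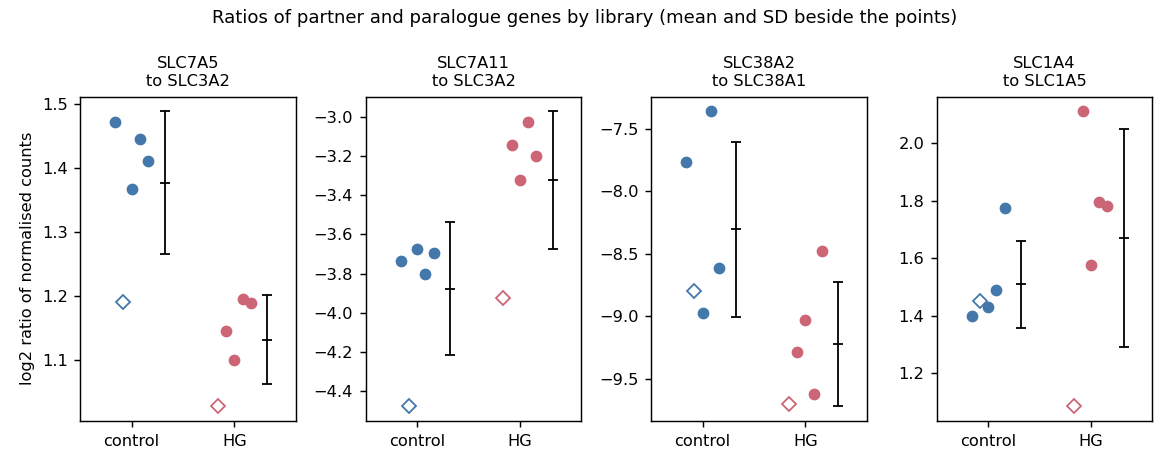
Log2 ratio of normalised counts of partner genes (left pair of panels) and of related carriers (right pair) in each library, with the mean and SD of each group (n = 5) beside the points, and open diamonds for control replicate 2 and HG_1. For SLC7A5 to SLC3A2 the 4 filled control points lie above all HG points, while for SLC1A4 to SLC1A5 the HG points lie on both sides of the control range.

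SLC7A1 (ENSG00000139514, GRCh38 chr13:29509410-29595688, minus strand) is the main carrier of arginine and lysine in most cells. Control replicate 2 had 154.5 CPM and the other control libraries 184.9 to 194.2 CPM, and HG_1 had 156.5 CPM and the other HG libraries 187.6 to 200.8 CPM. The same 2 libraries were thus the lowest of their groups. The means were 182.6 ± 16.2 and 188.9 ± 18.9 CPM, with a log2 fold change of 0.05 (95% interval -0.13 to 0.23, adjusted p = 0.766), which was 0.00 without control replicate 2.

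SLC38A1 and SLC38A2 are sodium-coupled carriers of glutamine, alanine and other small neutral amino acids, and lie next to each other on chromosome 12. SLC38A1 (ENSG00000111371, GRCh38 chr12:46183063-46270017, minus strand) had 238.1, 169.5, 217.5, 204.3 and 202.6 CPM in control replicates 1 to 5 and 172.7, 241.8, 232.7, 239.1 and 239.1 CPM in HG_1 to HG_5. HG_1 lay among the lowest libraries and control replicate 1 among the highest, so the groups overlapped. The log2 fold change was 0.13 (SE 0.108, 95% interval -0.11 to 0.36, adjusted p = 0.508). It ranged from 0.06 without control replicate 2 to 0.21 without HG_1 (adjusted p = 0.0977). It was 0.14 without HG_1 and control replicate 2 (adjusted p = 0.0591) and 0.14 after correction for GC content and length (adjusted p = 0.0138), the only setting in which a further transporter passed the limit.

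SLC38A2 (ENSG00000134294, GRCh38 chr12:46358189-46372867, minus strand), which many cells raise when amino acids run short, had few counts in all libraries. How its reads were counted is not given in the sources used here, so its level, its place in the order of levels and its ratio to SLC38A1 are uncertain. It had 36, 17, 18, 41 and 23 counts in control replicates 1 to 5 and 8, 16, 20, 10 and 22 counts in HG_1 to HG_5, in all 135 and 76 counts. The highest values were in control replicates 1 and 4, in which BEST1 was also high, and the groups overlapped. The part of that difference was not tested. The log2 fold change was -0.85 with a wide 95% interval of -1.79 to 0.09 (adjusted p = 0.223), so neither a large fall nor no change is outside it, and it ranged from -1.1 without HG_5 to -0.57 without control replicate 4. The antisense gene AC025031.2 overlaps the locus of SLC38A2, but no 100-base window of the SLC38A2 transcript is shared with another gene. The log2 ratio of SLC38A2 to SLC38A1 was -8.30 ± 0.70 in control and -9.22 ± 0.494 in HG (difference -0.92, exact permutation p = 0.0556, adjusted 0.0741), and it passed only without HG_5 among the fits with a library left out (-1.1, adjusted exact p = 0.0476).

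SLC1A4 (ENSG00000115902, GRCh38 chr2:64988477-65023865, plus strand), an exchanger of alanine, serine, cysteine and threonine, was the more evenly measured of the 2 members that rose. The control replicates had 15.8, 16.6, 17.7, 16.6 and 17 CPM and HG_1 to HG_5 had 19.5, 24.1, 19.5, 21.8 and 23 CPM. Each HG library was above each control library. The control mean of 16.7 ± 0.668 CPM rose to 21.6 ± 2.04 CPM in HG, by 0.37 on the log2 scale (SE 0.0731, 95% interval 0.20 to 0.53, adjusted p = 0.00683) or 1.29-fold, and without HG_1 and control replicate 2 it was 0.40 (adjusted p = 0.00458). The match to the response element shown above ends at the first base of a RefSeq transcript of this gene. The other members with a match, SLC1A5, SLC38A1, SLC7A1 and SLC3A2, were not called, and a part of the match in the rise was not tested.

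SLC1A5 (ENSG00000105281, GRCh38 chr19:46774883-46788594, minus strand), the related exchanger for glutamine, had 6, 6.08, 6.56, 5.93 and 4.96 CPM in control replicates 1 to 5 and 9.2, 5.57, 6.55, 6.29 and 6.69 CPM in HG_1 to HG_5. HG_1 was far above the other HG libraries, which overlapped the control range. The log2 fold change was 0.22 (SE 0.138, 95% interval -0.09 to 0.52, adjusted p = 0.354), and it was 0.09 without HG_1 and 0.10 without HG_1 and control replicate 2. A share of 24.47% of the windows of its transcript also belongs to AC008622.2 on the opposite strand, so its level is uncertain. The log2 ratio of SLC1A4 to SLC1A5 was 1.51 ± 0.152 in control and 1.67 ± 0.378 in HG, a difference of 0.16 (exact permutation p = 0.405, also after adjustment over the 4 ratios). It ranged from 0.05 without HG_2 to 0.31 without HG_1 (adjusted exact permutation p = 0.0529).

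SLC6A9 (ENSG00000196517, GRCh38 chr1:43991500-44031467, minus strand), a sodium- and chloride-coupled glycine carrier, had 60, 64, 27, 35 and 28 counts in control replicates 1 to 5 and 29, 31, 62, 27 and 8 counts in HG_1 to HG_5. The groups overlapped over most of their range, and HG_5 held the fewest counts. Its log2 fold change was -0.49 (95% interval -1.44 to 0.46, adjusted p = 0.521), from -0.79 without HG_3 to -0.25 without control replicate 1. SLC43A2 (ENSG00000167703, GRCh38 chr17:1569267-1628886, minus strand), a sodium-independent facilitator of large neutral amino acids, had 35, 49, 59, 38 and 43 counts in control and 81, 45, 78, 31 and 37 counts in HG. Its highest and its lowest library were both in the HG group. The log2 fold change was 0.30 (95% interval -0.25 to 0.85, adjusted p = 0.49), from 0.11 without HG_1 to 0.41 without HG_4. On the scale of log2(FPKM + 1), which compresses low levels, limma gave 0.02 for SLC43A2, -0.09 for SLC6A9 and -0.08 for SLC38A2. Neither difference was larger than the spread between libraries, and 1.49% of the windows of SLC43A2 also occur in other genes.

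In HG_1 members of low GC content were low and members of high GC content were high, and in control replicate 2 the members of low GC content were low. Against the other 4 HG libraries, HG_1 differed by -0.45, -1.06 and -0.46 on the log2 scale in SLC7A11 (GC content 35.4%), SLC38A2 (38.11%) and SLC38A1 (41.28%), and by 0.17 and 0.55 in SLC7A5 (61.1%) and SLC1A5 (61.28%). Control replicate 2 differed in the same direction in 9 of the 10 members, the exception being SLC43A2 (-0.05). Some of these differences were small there, with 0.05 in SLC7A5, 0.06 in SLC1A5 and -0.01 in SLC1A4. Of the members that differed between the groups, SLC1A4 has a GC content of 52.62%, so the 2 that were higher in HG have a lower GC content than SLC7A5. With HG_1 and control replicate 2 left out, the same 3 members passed the limit, and with GC content and length corrected they passed together with SLC38A1.

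**Figure D4:**
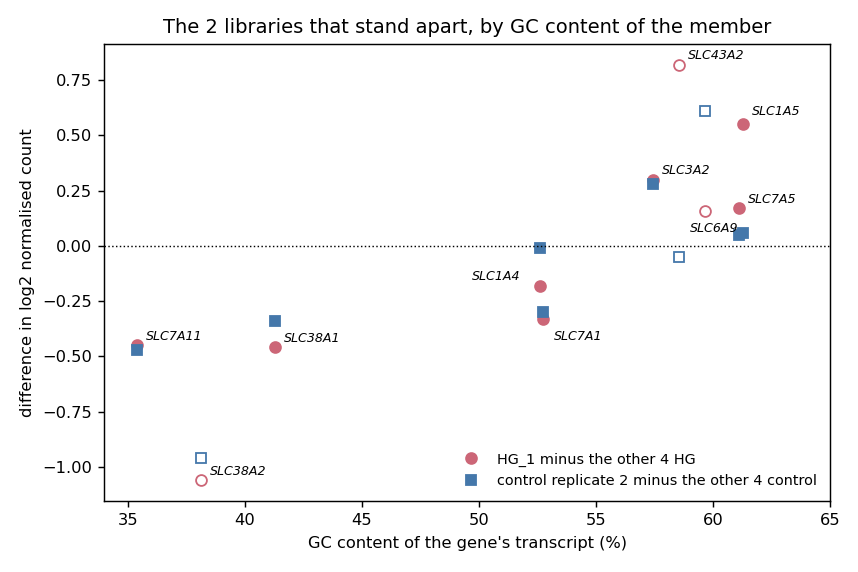
Difference in log2 normalised count between HG_1 (red circles) or control replicate 2 (blue squares) and the other 4 libraries of its group, for each of the 10 transporters, against the GC content of its transcript in percent. Filled points are members with a mean of at least 100 counts and open points are the others; SLC7A11 and SLC38A1 lie near -0.4 and SLC3A2 near 0.3 in both libraries.

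Other genes of the same pathways were taken from lists that leave out the 10 members, and the counts of each list stand against the 15.4% of all rows called (7.62% higher and 7.8% lower). Of 35 other plasma membrane amino acid transporters in the table, 25 were too low to be tested, and of the 10 tested 2 rose and 1 fell, with a median log2 fold change of 0.19. Of the 2 that rose, the larger change was in SLC6A15, a sodium-coupled carrier of branched-chain amino acids and proline, named after its values were seen, at 51.4 ± 5.62 CPM in control and 76.7 ± 8.01 CPM in HG (log2 fold change 0.58, adjusted p = 0.00217, no overlap). SLC6A17, a related carrier of neutral amino acids that is known mainly from synaptic vesicles although it was listed here, rose by 0.36 (adjusted p = 0.0356, named likewise), and its groups overlapped. SLC6A6, the carrier of taurine, an osmolyte of RPE cells, lay between 38.6 and 50.7 CPM in control and between 31.1 and 35.6 CPM in HG, without overlap. It fell by 0.37 on the log2 scale (adjusted p = 0.00701).

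Of 12 genes of cystine use and glutathione synthesis, 11 were tested, 3 rose and none fell, with a median of 0.17. CHAC1, an enzyme that breaks down glutathione, rose from 1.11 ± 0.449 to 3.56 ± 1.06 CPM (log2 fold change 1.67, adjusted p = 0.00402, and 0.92 with limma on log2(FPKM + 1)). CTH, which makes cysteine from cystathionine, rose from 7.61 ± 0.553 to 15.6 ± 1.88 CPM (1.04, adjusted p = 0.000122), and GSR, glutathione reductase, by 0.23 (adjusted p = 0.00299, named after its values were seen). The subunits of the enzyme that starts glutathione synthesis did not pass, with log2 fold changes of 0.07 for GCLC (adjusted p = 0.705) and 0.04 for GCLM (adjusted p = 0.85).

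Of 16 amino acid response regulators, all tested, 10 rose and 1 fell, with a median of 0.37. ATF4 was between 267.1 and 325.4 CPM in control, where control replicate 2 was the highest, and between 337.7 and 431.4 CPM in HG, where HG_1 was the highest. It rose by 0.40 (SE 0.0768, adjusted p = 0.00583). ASNS, asparagine synthetase, a long-known ATF4 target, was between 22 and 23.9 CPM in control and between 71.1 and 79.6 CPM in HG (log2 fold change 1.72, SE 0.0505, adjusted p = 3.62e-08). TRIB3, a pseudokinase induced by ATF4, rose by 1.27 (adjusted p = 2.86e-05) and NUPR1, a small stress protein, by 1.05 (adjusted p = 0.00102). The transcription factors DDIT3 (0.78, adjusted p = 0.00441), CEBPG (0.76, adjusted p = 0.000383) and ATF3 (0.68, adjusted p = 0.000558) rose as well. EIF2AK3, a kinase of the endoplasmic reticulum ahead of ATF4, fell by 0.39 (adjusted p = 0.0282, named after its values were seen). The log2 changes of the members that rose were 0.57 for SLC7A11 and 0.37 for SLC1A4, beside 0.40 for ATF4 and 1.72 for ASNS. That of SLC7A5 was -0.22, and the other 7 members, among them SLC3A2 with 0.02, were not called. The part of ATF4 in the levels of the members was not tested.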

How the data were processed

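RNA of 10 ARPE-19 libraries was sequenced (5 control, 5 HG). Per the labels, libraries were made with the VAHTS Universal V6 kit, and the submitters' processing notes name fastp 0.20.1, HISAT2 2.2.1 and GRCh38. The counting program and annotation are not given in the sources used here. The authors deposited whole-number read counts per gene, not normalized, and FPKM values, which the authors divided by transcript length and library size.

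Counts were tested in R 4.3.3 with edgeR 4.0.16 (default filter on low counts, TMM, quasi-likelihood test, Benjamini-Hochberg adjustment over 14936 rows). CPM values were computed from the deposited counts, total counts and TMM factors, and floors from total counts alone. Ratios were tested with an exact two-sided permutation test, for which the smallest possible p is 0.00794. Alternatives used DESeq2 1.42.0, limma 3.58.1 on log2 of FPKM with a pseudocount of 1 or 0.1, sva 3.50.0 with 1 surrogate variable, other filters and scalings, a correction for GC content and length (lowess, span 0.3), and libraries left out. Gene positions and transcripts come from GENCODE release 29. On simulated counts with 199 changed among 14741 genes, edgeR called 52 of 100 at a log2 change of 0.58 and 67 of 99 at 1, with 6 unchanged genes called. No 2 libraries of a group agreed within sampling noise (20 pairs compared). Floors cover counting error only.

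The members and gene lists were chosen with earlier results of these data known. All 10 members, SLC6A6, ATF4, ASNS, TXNIP and every listed pathway gene that was called and changed by more than 1.5-fold are named by rule, and other genes were named after their values were seen. The summed level of the neural retina markers is not reported here. Protein sequences and the authors' other experiments were not analysed here.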

Additional observations from a re-analysis of the deposited data

Results flagged for a closer look

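In groups of 5 libraries, the level of a named gene or ratio was set apart where the gap from the most extreme library to its nearest neighbour exceeded 0.71 of the group's range. Of 52 groups examined 7 met this, where chance gives about 1 in 20, or 2.6, and 6 of the 7 were in HG_1 or control replicate 2, the libraries whose levels rose with GC content. The part of GC content in them was not tested.

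SLC3A2 stood at 493.3 CPM in control replicate 2, against 391.7 to 415.5 CPM in the other 4 control libraries, and at 507.9 CPM in HG_1, against 402.4 to 419.7 CPM. SLC7A1 had 154.5 CPM in control replicate 2 and 184.9 to 194.2 CPM in the other control libraries. SLC38A1 had 172.7 CPM in HG_1 and 232.7 to 241.8 CPM in the other HG libraries. ATF4 had 325.4 CPM in control replicate 2 and 267.1 to 277.3 CPM in the other control libraries. The ratio of SLC7A11 to SLC3A2 was 0.0449 in control replicate 2 and 0.0716 to 0.0783 in the others. The ratio of SLC1A4 to SLC1A5 was 3.42 in control replicate 5 and 2.64 to 2.81 in the other control libraries.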

How the results depend on the processing

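Under all 22 alternatives SLC7A11 (log2 fold change 0.45 to 0.59, and 0.49 to 0.66 with 1 library left out), SLC1A4 (0.31 to 0.40, and 0.32 to 0.40) and SLC7A5 (-0.25 to -0.16, and -0.25 to -0.20) kept their direction and stayed past the limit, and 3 or 4 transporters were called. The fourth was SLC38A1 at 0.14 with GC content and length corrected. Called over all rows were 4035 of 14899 (27.1%) without HG_1 and control replicate 2 together and 3966 of 13538 (29.3%) with GC content and length corrected, against 2303 of 14936 (15.4%), and 1648 to 2993 with 1 library left out. Listed pathway genes called were 42 of 65 with that correction, against 25. The sign turned for SLC3A2 without HG_1 (-0.04) and without control replicate 1 (0.00), in a range of -0.04 to 0.08 with 1 library left out, and for SLC7A1 without control replicate 2 (0.00), in a range of 0.00 to 0.11. The difference in the log2 ratio of SLC7A5 to SLC3A2 passed the limit from FPKM (-0.31) and without HG_1, HG_5 or control replicate 2 (-0.29 to -0.22 over all 10). That of SLC7A11 to SLC3A2 was 0.40 to 0.70 and passed without HG_1, and that of SLC38A2 to SLC38A1 was -1.1 to -0.68 and passed without HG_5. The cause of these shifts was not tested. SLC38A2 and SLC6A9 had no value under the filter of 10 counts in every library and that of a mean FPKM of 1, nor SLC43A2 under the latter. No paired analysis was possible because no source ties a control library to an HG library: the labels give numbers to the former and letters to the latter, and nothing says that deposited columns of the same number belong together. SLC38A2, SLC6A9 and SLC43A2 had under 100 counts per library, and the parts of depth and of other spread in their wide intervals were not separated. The overlap of the groups on other scales was examined after seeing the data.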

Other observations

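The counts in the following lists stand against 15.4% of all rows called, 7.62% higher and 7.8% lower in HG. Of 14 lysosomal and vesicular amino acid transporters 10 were tested, 2 rose and 1 fell, with a median log2 fold change of 0.095. CTNS, which releases cystine from lysosomes, rose from 39.1 ± 6.04 CPM (SD, n = 5) to 53.1 ± 5.7 CPM (0.44, edgeR adjusted p = 0.0233). SLC38A6, a relative of SLC38A1, rose by 0.31 (adjusted p = 0.0176) and MFSD12, a cysteine carrier of lysosomes and melanosomes, fell by 0.32 (adjusted p = 0.0211). These 3 genes were named after their values were seen.

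Of 16 genes that sense amino acids ahead of the growth kinase complex mTORC1 all were tested, 5 rose and none fell, with a median of 0.055. RRAGD, a small GTPase that recruits the complex to lysosomes, was between 30.9 and 51.5 CPM in control and between 81.8 and 96.5 CPM in HG (log2 fold change 1.05, edgeR adjusted p = 0.000257). The others, named after their values were seen, were RRAGB (0.46), SESN1 (0.30), RRAGC (0.27) and the leucine sensor SESN2 (0.39), which also stands among the amino acid response regulators. Of 5 osmolyte genes other than SLC38A2 4 were tested and 2 fell, with a median of -0.43. These were SLC6A6, which also stands among the plasma membrane transporters, and AKR1B1, the aldose reductase that makes sorbitol from glucose, at 1276.9 ± 151.7 CPM in control and 903.9 ± 110.3 CPM in HG (-0.50, edgeR adjusted p = 0.00608). The log2 fold change was -0.50 for the inositol carrier SLC5A3 (adjusted p = 0.0709) and -0.23 for the osmotic regulator NFAT5 (adjusted p = 0.265).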
